A study of Mus musculus with 24 samples.

Results

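The genes described here are 38 genes of macroautophagy and of the lysosome in mouse liver, followed over 1 circadian cycle. They were chosen by name, as every probe set whose platform annotation carries 1 of 38 listed symbols. All 38 were found, through 44 probe sets, among the 19935 genes with a value. They fall into 4 roles: 11 genes that start the autophagosome and supply its membrane, 15 genes of the conjugation machinery with the LC3 and GABARAP proteins, 4 cargo receptors, and 8 genes of the lysosome, counting its transcription factor Tfeb.

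Livers came from C57BL/6 mice, adult males from Harlan-Olac (UK), that carried no mutation or treatment named in the labels. The animals had been entrained to light and dim red light, were then moved to constant dim red light with food always present, and were killed every 3 h on the second cycle there. Total RNA of each liver was biotin labelled and hybridized to its own Affymetrix Mouse Gene ST 1.0 array, 3 arrays at each of 8 times from CT00 to CT21, 24 in all. The labels speak of 4 mice in one place and of 3 biological replicates per time in another, and the series text counts 4 time points where the sample labels give 8. By convention CT00 to CT12 is the subjective day, the resting phase of a mouse, and CT12 to CT24 the subjective night. With 1 cycle sampled, whether any pattern recurs was not measured. RNA of a whole liver pools all its cells, so fewer cells of a type and less RNA per cell cannot be told apart.

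Macroautophagy encloses cytoplasm in a double membrane and delivers it to lysosomes, where acid hydrolases break it down. A ULK1 kinase complex and a Beclin 1 lipid kinase complex start the membrane, ubiquitin-like conjugation attaches LC3 and GABARAP proteins to it, and receptors tether cargo to these proteins. In liver, autophagy supplies amino acids, fatty acids and glucose between meals and removes damaged mitochondria, and TFEB drives many of its genes together with those of lysosomes.

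The deposited log values are centred on each probe set's own median, so a value gives a change over the cycle and no level. Folds assume that the logarithm has base 2. A wave of 24 h was fitted to the 24 arrays of every gene with limma. Its amplitude is the log2 height of the peak above the wave's midline, and its fold is peak over trough. A gene was called where the Benjamini-Hochberg adjusted p over all 19935 genes was under 0.05. A second test, limma's moderated F for equal means at the 8 times, asks for no wave shape. All adjusted p-values given for single genes come from these limma fits. In the test of the 8 times the error is the spread between the 3 livers of a time. In the wave test it also holds departures of the 8 means from a 24 h wave. Both errors are moderated by those of all genes, and neither covers a spread beyond these livers. As a check of timing, the clock genes Nr1d1, Dbp and Arntl peaked at 7.29, 10.1 and 22.7 h with folds of 10.3, 7.73 and 5.20.

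Of the 38 genes, 15 followed a 24 h wave, against 13.8% of all genes tested. They were Ulk1, Atg2a, Pik3c3, Wipi2, Atg14 and Becn1 among the initiation genes, Gabarapl1, Atg7 and Map1lc3b in the conjugation group, the receptors Bnip3, Sqstm1, Bnip3l and Nbr1, and the proteases Ctsl and Ctsa. The test of the 8 times called 11, against 10.9% of all genes, and 10 passed both tests. Only Atg16l1 passed the test of the 8 times without the other, so 16 genes passed either test. Over all 19935 genes 1726 passed both tests and 3199 passed either. The arrays of the highest and of the lowest time did not overlap for 28 of the 38, against 63.1% of all genes, so that such a gap was common in any gene. Of the 24 arrays, 4 lay farthest from the others of their time: CT09 replicate 3, CT15 replicate 2 and CT18 replicates 2 and 3. Without them 11 of the 38 were called for the wave, and the calls of Becn1 (adjusted p = 0.0511), Atg14 (0.059), Nbr1 (0.124) and Ctsa (0.173) in the limma fit were lost.

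The called waves were day waves of modest size. Peaks fell in the subjective day for 13 of the 15 called genes and just after CT12 for the other 2, Bnip3 and Becn1. Of all 2758 called genes, 57.9% peaked in the day. No called gene (0 of 15) peaked from 15 to 24 h, where 29.3% of all called genes did. Folds of the 38 genes ran from 1.00 to 1.81 with a median of 1.12, beside a median of 1.07 over all genes. Among called genes the median fold was 1.22 here and 1.26 over all genes. The highest of the 8 means fell at CT06 for 14 of the 38 genes and at CT21 for none (0), while the lowest fell at CT21 for 10. These counts include the 23 genes not called for the wave and are not set beside a share over all genes.

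Genes with brighter probe sets were called more often in the whole table, and 20 of the 38 were of that kind. The rounding of the deposited values sorts probe sets into a brighter class, with a log value of about 8 or more, and a lower one. In the brighter class 10 of 20 members were called, against 34.1% of all genes of that class. In the lower class 5 of 17 were called, against 10.6%. Gabarapl2, with a probe set in each class, was not called.

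**Figure D1:**
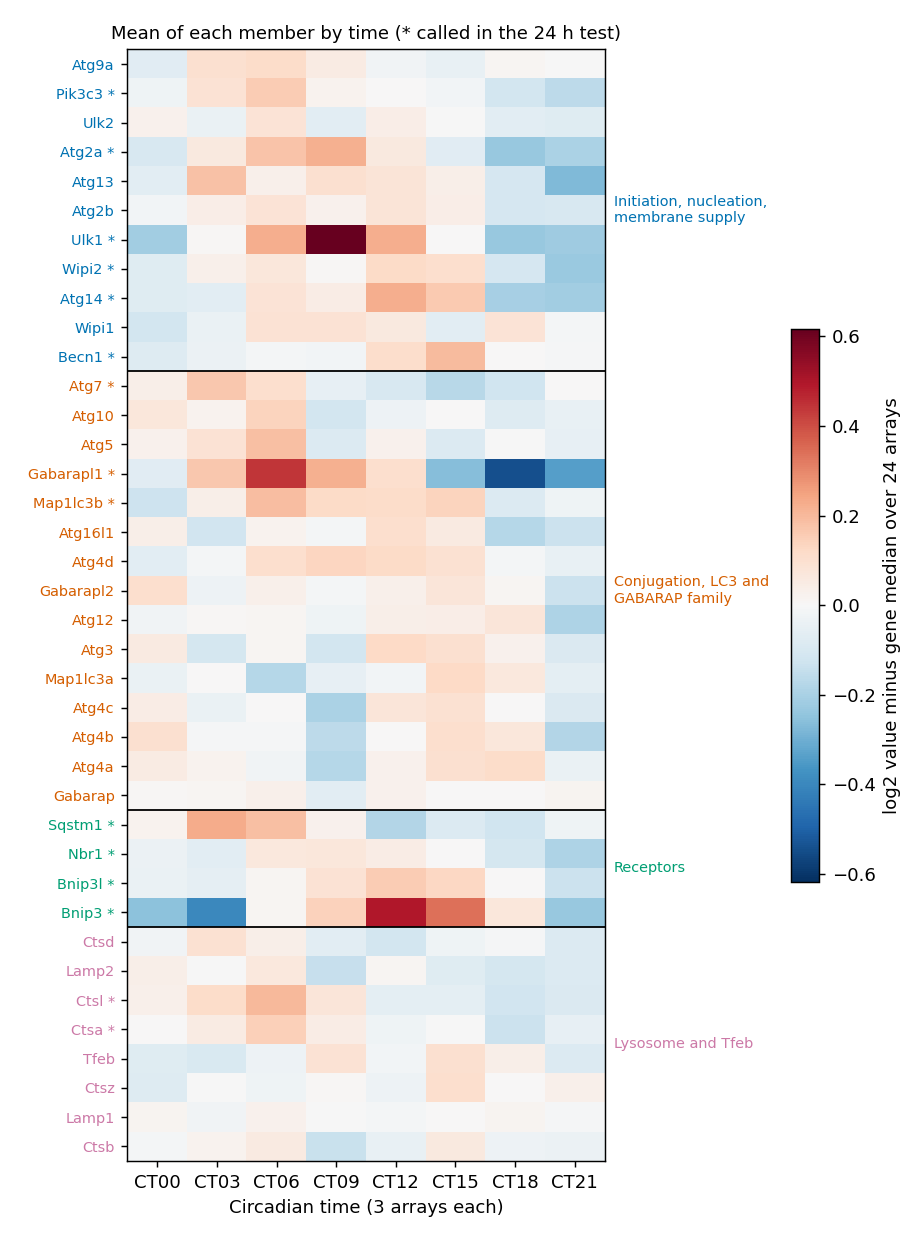
Mean log2 value of each of the 38 genes at the 8 circadian times (columns; 3 livers each), relative to the gene's median over the 24 arrays, with genes in rows by role; called genes are marked. Most called genes are high between CT03 and CT12 and low at CT18 or CT21, with Bnip3 and Becn1 shifted into the early night.

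Promoter sequences are shown for 5 genes that differ most in the size of their wave and in clock-related motifs, as 250 bases ending just before the start, 5′ to 3′ on the gene's strand. Gabarapl1 (chr6:129532942-129533191 on the plus strand) and Ulk1 (chr5:110810082-110810331 on the minus strand) had the largest waves of the conjugation and initiation groups. Bnip3 (chr7:138909507-138909756 on the minus strand) and Atg7 (chr6:114670846-114671095 on the plus strand) were called and hold the E-box CACGTG. Lamp1 (chr8:13158911-13159160 on the plus strand) had the smallest wave of the 38 and holds that E-box 4 times. Sequences and coordinates are those of RefSeq, build GRCm38.p6. Capitals mark CACGTG, which reads the same on both strands.
Gabarapl1: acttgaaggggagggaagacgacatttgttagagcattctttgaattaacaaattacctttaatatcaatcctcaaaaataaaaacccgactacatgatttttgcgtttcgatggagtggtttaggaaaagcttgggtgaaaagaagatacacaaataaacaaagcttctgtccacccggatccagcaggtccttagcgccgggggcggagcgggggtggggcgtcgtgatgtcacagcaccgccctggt
Ulk1: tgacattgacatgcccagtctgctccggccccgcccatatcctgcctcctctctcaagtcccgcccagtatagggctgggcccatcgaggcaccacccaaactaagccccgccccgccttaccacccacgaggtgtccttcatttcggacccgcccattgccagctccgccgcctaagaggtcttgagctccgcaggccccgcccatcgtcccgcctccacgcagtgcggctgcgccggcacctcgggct
Bnip3: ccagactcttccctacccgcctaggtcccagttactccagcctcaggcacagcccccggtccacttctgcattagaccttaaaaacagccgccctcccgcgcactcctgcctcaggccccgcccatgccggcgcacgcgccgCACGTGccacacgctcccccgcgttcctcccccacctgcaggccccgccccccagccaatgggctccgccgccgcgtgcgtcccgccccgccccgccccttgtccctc
Atg7: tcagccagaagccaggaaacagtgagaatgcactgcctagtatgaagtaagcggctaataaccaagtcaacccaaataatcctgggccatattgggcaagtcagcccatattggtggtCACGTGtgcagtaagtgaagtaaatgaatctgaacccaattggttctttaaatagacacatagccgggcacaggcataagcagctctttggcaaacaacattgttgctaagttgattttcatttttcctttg
Lamp1: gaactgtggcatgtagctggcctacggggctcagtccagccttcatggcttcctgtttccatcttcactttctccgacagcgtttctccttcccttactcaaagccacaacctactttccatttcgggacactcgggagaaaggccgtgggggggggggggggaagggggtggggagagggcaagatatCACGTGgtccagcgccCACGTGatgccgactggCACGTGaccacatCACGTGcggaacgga

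The E-box CACGTG is known as a binding sequence of CLOCK and BMAL1 and of several other factors. A promoter entry was at hand for 31 of the 38 genes, and 8 of these (25.8%) held CACGTG: Atg3, Atg5, Atg7, Bnip3, Ctsa, Ctsd, Ctsl and Lamp1. It occurred in 6.02% of all 32851 promoters of the same length and in 8.11% of the tested genes with an entry. Of the 8 genes, 4 had a called wave (Atg7, Bnip3, Ctsa and Ctsl), out of 12 called genes with an entry. The longer TCACGTGA, the core of the lysosomal CLEAR element, which contains the E-box, was found in 3 of the 31 (Atg3, Ctsa and Ctsd), against 0.785% of all promoters and 1.25% of the tested genes with an entry. Neither D-box sequence searched, TTATGTAA or TTACGTAA, was found in the 31 (0 for each), and they occurred in 0.819% and 0.113% of all promoters (0.897% and 0.154% of those genes). The nuclear receptor motif AGGTCA, searched on both strands like the others, was in 6 of the 31 (Atg4a, Ctsa, Ctsd, Gabarapl2, Nbr1 and Ulk2), against 14% of all promoters and 14.3% of those genes. Counted from the gene's start, the E-box began at -132 in Atg7, at -108 in Bnip3, and at -61, -45, -28 and -15 in Lamp1. None of the 5 motifs lies in these 250 bases of Gabarapl1, Ulk1, Sqstm1 or Atg2a; other stretches were not searched. A match of letters is no evidence of binding.

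Among the 11 genes of initiation, nucleation and membrane supply, 6 followed a 24 h wave (13.8% of all genes) and 4 passed the test of the 8 times (10.9% of all genes). Of the 8 in the lower class, where 10.6% of all genes were called for the wave, 5 were called, and 1 of the 3 in the brighter class. Their median fold was 1.18, beside 1.07 over all genes. The mean over the group was highest at CT06, at 0.10 ± 0.0093 (SD, n = 3), and lowest at CT21, at -0.14 ± 0.0821. It was nearly as high at CT09 (0.099 ± 0.0492) and CT12 (0.088 ± 0.0472). Ulk1, Atg2a, Pik3c3, Wipi2 and Atg14 peaked in the day and Becn1 in the night.

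Ulk1, the protein kinase that starts autophagosome formation when nutrients are short, had the largest wave of these genes. In the 3 livers of each time it read -0.38, -0.18 and -0.081 at CT00, 0.13, -0.041 and -0.060 at CT03, 0.23, 0.22 and 0.21 at CT06, and 0.53, 0.78 and 0.55 at CT09. From CT12 on it read 0.33, 0.14 and 0.21 at CT12, 0.20, -0.22 and 0.041 at CT15, -0.18, -0.25 and -0.27 at CT18, and -0.17, -0.30 and -0.19 at CT21. All 3 livers of CT09 lay above every other liver of the cycle, and every liver of CT18 and CT21 read below 0. The fitted wave was 1.66-fold (amplitude 0.37 ± 0.0395 (SE), peak at 8.96 ± 0.410 h; adjusted p = 1.1e-06). Its relative Ulk2, which shares part of its function, gave 1.05-fold (adjusted p = 0.84). Subtracting Ulk2 from Ulk1 on each array left a wave of 0.34 ± 0.0642 (SE), adjusted p = 0.0003 by a permutation test over the 24 arrays, adjusted over 12 pairs of relatives. The 12 pairs were chosen with earlier results of these data known, and their p-values do not allow for that choice.

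Atg2a encodes a lipid transfer protein that feeds the growing membrane. The 3 livers of each time gave -0.16, -0.084 and -0.047 at CT00, 0.047, 0.11 and 0.020 at CT03, 0.099, 0.24 and 0.19 at CT06, and 0.30, 0.096 and 0.26 at CT09. The later times gave 0.071, -0.020 and 0.13 at CT12, 0.16, -0.11 and -0.26 at CT15, -0.15, -0.41 and -0.15 at CT18, and -0.038, -0.23 and -0.32 at CT21. All livers from CT03 to CT09 read above 0 and all of CT18 and CT21 below it, while the livers of CT15 were spread on both sides. Its wave was 1.35-fold (amplitude 0.22 ± 0.0302 (SE), peak at 7.64 ± 0.527 h; adjusted p = 3.92e-05). The paralog Atg2b gave 1.12-fold with a fitted peak near that of Atg2a, at 8.22 h, and did not pass (adjusted p = 0.0814), though it did without CT09 or CT15 replicate 2 (0.0339 and 0.038) and without CT09 or CT15 as a whole (0.044 to 0.0444). The waves of the pair differed by 0.14 ± 0.0301 (SE), adjusted p = 0.0018 in the permutation test.

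The lipid kinase complex moved less. Pik3c3 (VPS34), its catalytic subunit, read 0.15, 0.12 and 0.20 at its highest time, CT06, and -0.039, -0.14 and -0.30 at its lowest, CT21, without overlap, and its wave was 1.18-fold with a peak at 6.62 ± 0.793 h (adjusted p = 0.00417). Atg14, the subunit that places the kinase at the site of initiation, read 0.48, -0.0059 and 0.19 at CT12 and 0.066, -0.17 and -0.54 at CT21, which overlap. Its fold was 1.28 with a peak at 10.3 ± 1.03 h (adjusted p = 0.0346). Becn1, the scaffold of the complex, read 0.037, 0.30 and 0.25 at CT15 and -0.076, -0.092 and -0.067 at CT00, and peaked in the night, at 13.9 ± 0.977 h, with a fold of 1.14 (adjusted p = 0.024). The calls of Atg14 and Becn1 each rest on single livers: without 1 of 4 arrays (CT12 replicate 1 or 3, CT21 replicate 2 or 3) the adjusted p of Atg14 was 0.0545 to 0.0805, and without CT12 replicate 2 or CT15 replicate 2 or 3 that of Becn1 was 0.0553 to 0.0619. Leaving out whole times, Atg14 also missed the threshold without CT03, CT06, CT12, CT15, CT18 or CT21 (0.0573 to 0.15), Becn1 without CT00, CT12 or CT15 (0.0727 to 0.172), and Pik3c3 without CT06 (0.0774). The wave call of Atg14 was also lost with array weights (adjusted p = 0.0699 in limma) and with an ordinary, unmoderated F test (0.0616). In the test of the 8 times Pik3c3 passed at 0.0432 and no longer passed without any 1 of 16 arrays (0.0509 to 0.104).

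Wipi2, which reads the lipid made by the kinase and recruits the conjugation machinery, was 1.19-fold (adjusted p = 0.0172) with a peak at 9.66 ± 0.935 h. It read 0.12, 0.0029 and 0.22 at CT12 and -0.15, -0.10 and -0.43 at CT21. Its call was lost without CT06, CT12, CT18 or CT21 (adjusted p 0.0516 to 0.148), and its call in the test of the 8 times (adjusted p = 0.0301) without CT12 replicate 1 (0.0561) or CT21 replicate 3 (0.0654). Wipi1 gave 1.09-fold (adjusted p = 0.494), and the difference of the pair, 0.068 ± 0.0478 (SE), did not pass (adjusted p = 0.422 in the permutation test). Atg13, the partner of ULK1, missed the threshold with a fold of 1.22 (adjusted p = 0.0545), and it passed when 1 of 7 arrays was left out (adjusted p 0.0189 to 0.0475; CT00 or CT03 or CT18 replicate 3, CT06 or CT15 replicate 2, CT09 replicate 1 or 2), without CT03, CT06 or CT15 (0.0406 to 0.0439), with array weights (0.0291), with brighter probe sets only (0.0229) and with 12 h terms in the model (0.0294). Atg13 also passed with the replicate number as a block (0.0345 in limma). Atg9a, the membrane protein of the vesicles that seed the autophagosome, gave 1.09-fold (adjusted p = 0.424).

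**Figure D2:**
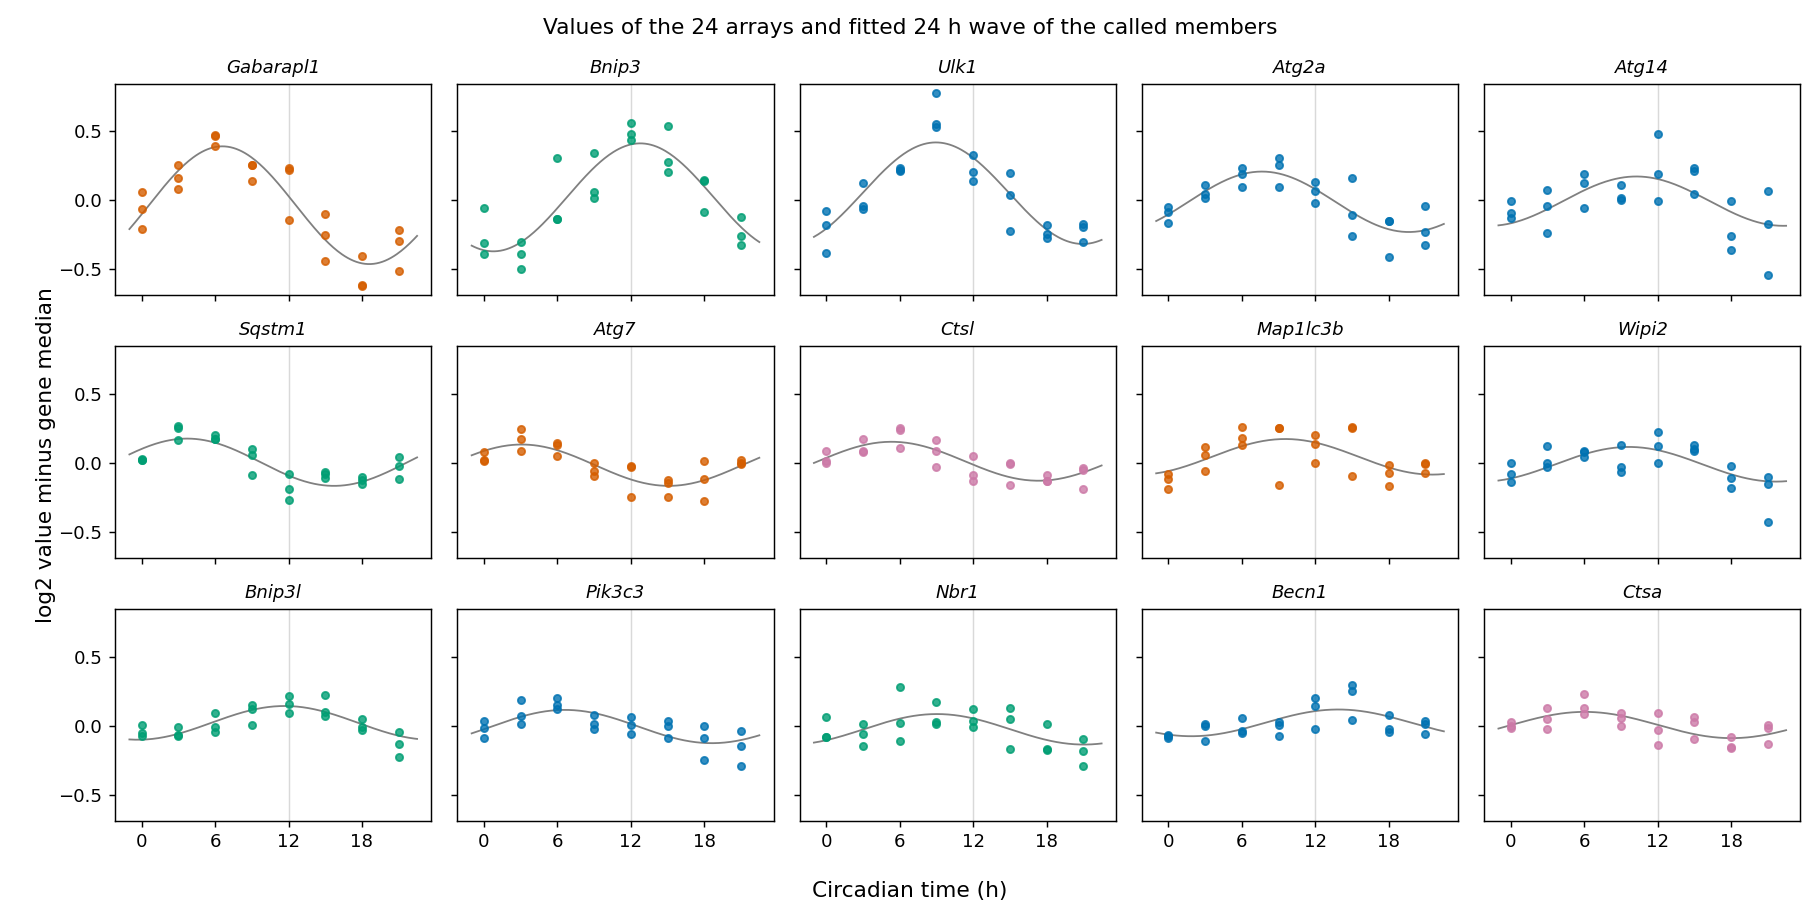
Log2 value of each array (points, 3 livers per time) of the called genes against circadian time in h, relative to the gene's median over the 24 arrays, with the fitted 24 h wave as a line. Ulk1, Gabarapl1 and Bnip3 show the widest swing, and for Atg2a the livers of CT15 spread most.

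The conjugation machinery with the LC3 and GABARAP family held the largest wave of all 38 genes and 12 genes not called for it. Of its 15 genes, 3 followed a 24 h wave (Gabarapl1, Atg7 and Map1lc3b) and 3 passed the test of the 8 times, shares not far from the 13.8% and 10.9% of all genes. Either test was passed by 4, beside 3199 of all 19935 genes. The 3 called for the wave were among its 6 genes of the brighter class, where 34.1% of all genes were called. The median fold was 1.11, beside 1.07 over all genes. The 12 others included 3 of the 4 Atg4 proteases with folds of 1.05 to 1.11.

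Gabarapl1 encodes a ubiquitin-like protein of the GABARAP branch that is attached to the membrane lipid. By time, 3 livers each, the values were -0.21, -0.063 and 0.063 at CT00, 0.26, 0.085 and 0.16 at CT03, 0.47, 0.40 and 0.46 at CT06, and 0.26, 0.26 and 0.14 at CT09. The second part of the cycle gave 0.23, -0.14 and 0.22 at CT12, -0.25, -0.44 and -0.10 at CT15, -0.61, -0.62 and -0.40 at CT18, and -0.29, -0.22 and -0.51 at CT21. The 3 livers of CT06 lay above all others and all livers of CT15, CT18 and CT21 below 0. Its wave was 1.81-fold (amplitude 0.43 ± 0.0370 (SE), peak at 6.59 ± 0.332 h; adjusted p = 3.32e-08). Its relatives Gabarap and Gabarapl2 gave 1.02-fold and 1.03-fold (adjusted p = 0.966 and 0.946). Gabarapl1 differed from Gabarapl2 by a wave of 0.42 ± 0.0468 (SE) and from Gabarap by 0.43 ± 0.0433 (SE). The adjusted p was 4e-05 for both in the permutation test, the smallest its 100000 draws allow here.

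In the LC3 branch the 2 genes tested had different waves. Map1lc3b (LC3B), the protein most used to follow autophagosomes, read -0.12, -0.077 and -0.19 at CT00, 0.18, 0.26 and 0.13 at CT06, and 0.26, 0.26 and -0.16 at CT09. The livers of CT06 lay above those of CT00, and at CT09 replicate 3 stood apart from the other 2. Its wave was 1.20-fold (amplitude 0.13 ± 0.0354 (SE), peak at 9.55 ± 1.05 h; adjusted p = 0.0385). The call was lost when any 1 of 14 of the 24 arrays was left out (adjusted p 0.0517 to 0.0791; all 3 of CT00, CT06 and CT18, replicates 1 and 2 of CT09, 1 and 3 of CT12, and 3 of CT21), and without CT00, CT03, CT06, CT12, CT18 or CT21 (0.0612 to 0.16). Array weights (adjusted p = 0.0571 in limma) and an ordinary, unmoderated F test (0.0602) also lost the call of Map1lc3b. Map1lc3a was not called, with 1.12-fold and a fitted peak at 16.7 h (adjusted p = 0.29). Their difference was 0.17 ± 0.0471 (SE), adjusted p = 0.00873 in the permutation test, and it missed the threshold without CT06 (0.104) or CT18 (0.0711).

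Atg7 encodes the E1-like enzyme that activates both ubiquitin-like systems. Liver by liver it read 0.024, 0.078 and 0.011 at CT00, 0.17, 0.090 and 0.24 at CT03, 0.048, 0.14 and 0.13 at CT06, and 0.0033, -0.057 and -0.094 at CT09. After CT09 the values were -0.25, -0.023 and -0.026 at CT12, -0.25, -0.14 and -0.12 at CT15, -0.12, -0.28 and 0.017 at CT18, and -0.0033, -0.0083 and 0.020 at CT21. All livers of CT03 and CT06 read above 0, and all of CT12 and CT15 below it. Its wave was 1.23-fold and peaked earliest of the called genes (amplitude 0.15 ± 0.0232 (SE), peak at 3.09 ± 0.591 h; adjusted p = 0.000167). In the test of the 8 times its adjusted p was 0.0133, and 0.086 without CT03. The E2-like enzymes Atg3 and Atg10 gave 1.10-fold and 1.09-fold, and Atg5 and Atg12, which form the conjugate that directs lipidation, gave 1.12-fold and 1.07-fold. Their adjusted p ran from 0.256 to 0.654.

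Atg16l1, which anchors that conjugate to the membrane, passed the test of the 8 times (adjusted p = 0.0464) but not that of the wave (adjusted p = 0.218), which it passed without CT00 (0.0219). It read 0.21, 0.035 and 0.069 at CT12 and -0.11, -0.32 and -0.099 at CT18, without overlap. That call was lost when any 1 of 21 of the 24 arrays was left out (adjusted p 0.0523 to 0.0904; all but CT15 and CT18 replicate 3 and CT21 replicate 1). The 4 Atg4 proteases, which trim LC3 and GABARAP proteins and release them from lipid, gave 1.11-fold (Atg4a), 1.05-fold (Atg4b), 1.06-fold (Atg4c) and 1.16-fold (Atg4d), with adjusted p from 0.0758 to 0.918. Atg4d passed when 1 of 3 arrays was left out (0.0388 to 0.043 for CT03 replicate 1, CT09 replicate 3 or CT12 replicate 2). It also passed with the replicate number as a block (0.0169 in limma). Neither Atg4 pair differed in the permutation test, with differences of 0.039 ± 0.0261 (SE) for Atg4a and Atg4b (adjusted p = 0.413) and 0.12 ± 0.0695 (SE) for Atg4c and Atg4d (adjusted p = 0.346). The means of Atg4a, Atg4b and Atg4c at CT09 were -0.18 ± 0.161, -0.16 ± 0.186 and -0.19 ± 0.212 (SD, n = 3).

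**Figure D3:**
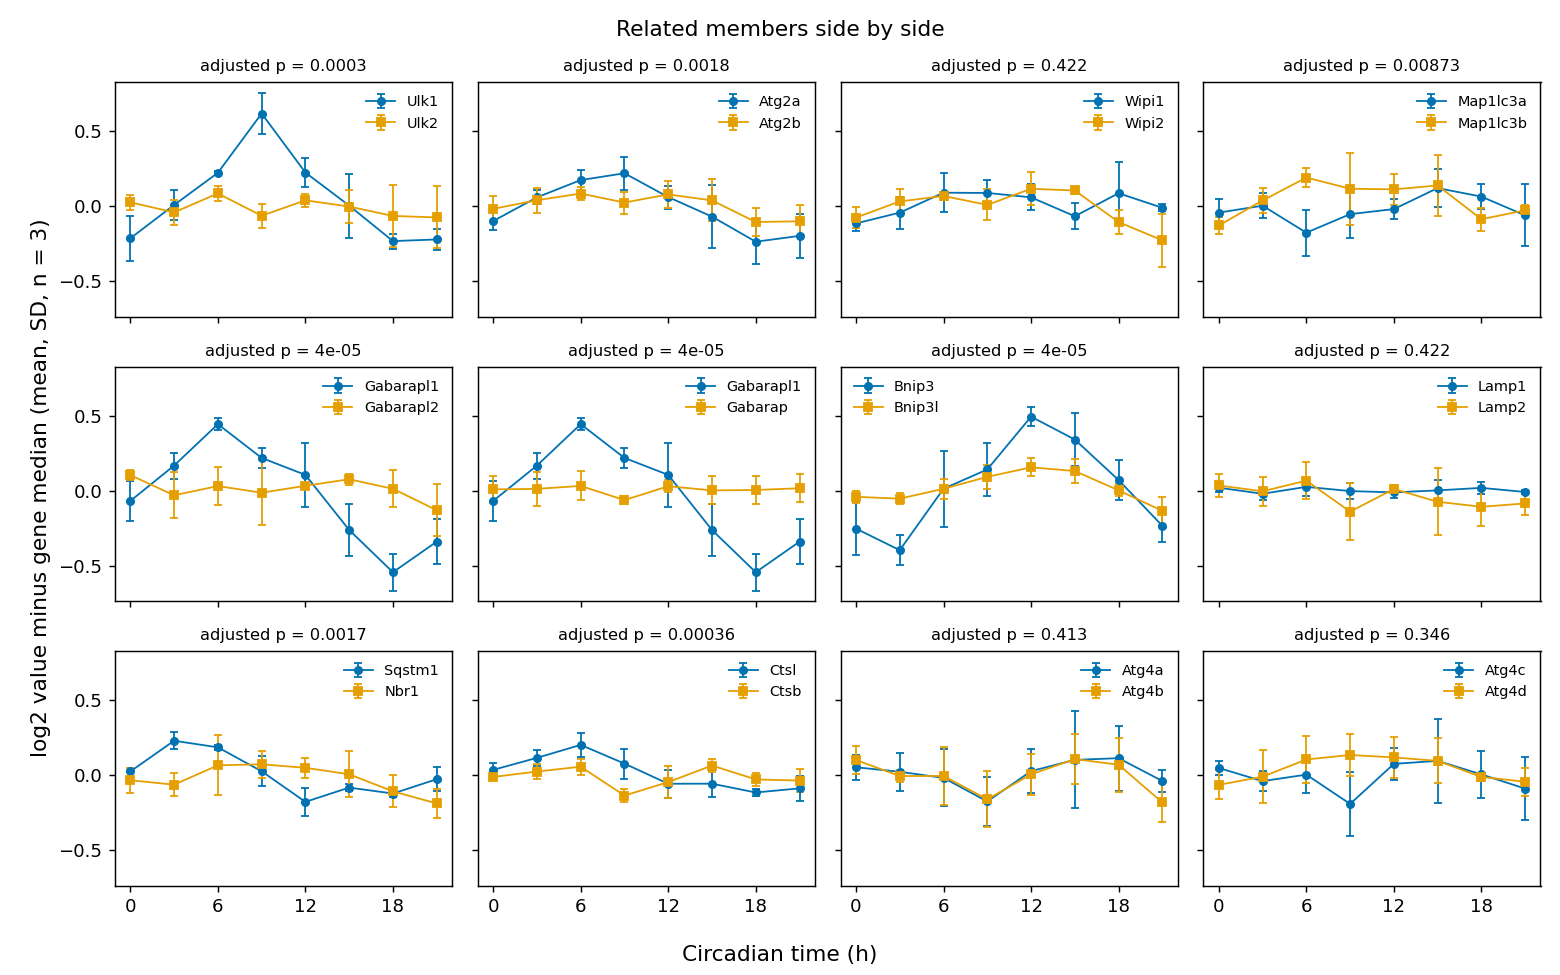
Mean log2 value (bars, SD, n = 3) of both genes of each of the 12 tested pairs against circadian time in h, relative to the gene's median over the 24 arrays, with the adjusted p of their difference above each panel. The genes part most for Gabarapl1 against either relative and for Ulk1 against Ulk2 at CT09, and the lines of Atg4a and Atg4b run close together.

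All 4 receptors followed a 24 h wave, and 3 of them (Sqstm1, Bnip3 and Bnip3l) also passed the test of the 8 times, beside 13.8% and 10.9% of all genes. All 4 were in the brighter class, where 34.1% of all genes were called for the wave. Their median fold was 1.23, beside 1.07 over all genes. Their peaks were spread over the day: Sqstm1 early, Nbr1 near CT09, and the pair of mitochondrial receptors around CT12.

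Bnip3, a receptor on mitochondria that is also known as a hypoxia-responsive gene, had the second largest wave of the 38. Its log2 values, 3 per time, were -0.39, -0.31 and -0.057 at CT00, -0.50, -0.39 and -0.30 at CT03, -0.13, -0.13 and 0.30 at CT06, and 0.062, 0.017 and 0.34 at CT09. From CT12 to CT21 they were 0.43, 0.56 and 0.48 at CT12, 0.20, 0.28 and 0.54 at CT15, -0.083, 0.15 and 0.14 at CT18, and -0.26, -0.12 and -0.32 at CT21. The 3 livers of CT12 lay above every liver of CT00, CT03 and CT21, all of which read below 0. Its wave was 1.72-fold (amplitude 0.39 ± 0.0434 (SE), peak at 12.8 ± 0.424 h; adjusted p = 1.77e-06). Bnip3l (NIX), the related mitochondrial receptor, ran with it at a smaller size. The values of its 24 livers were -0.073, -0.052 and 0.0011 at CT00, -0.070, -0.078 and -0.013 at CT03, -0.0088, -0.044 and 0.088 at CT06, and 0.12, 0.0015 and 0.15 at CT09. The remaining times gave 0.093, 0.16 and 0.21 at CT12, 0.070, 0.10 and 0.22 at CT15, -0.031, -0.011 and 0.047 at CT18, and -0.13, -0.045 and -0.23 at CT21. Every liver of CT12 and CT15 read above 0 and every liver of CT21 below it. Its wave was 1.18-fold (amplitude 0.12 ± 0.0207 (SE), peak at 11.7 ± 0.648 h; adjusted p = 0.000495). In the test of the 8 times its adjusted p was 0.0117, with 0.0534 to 0.0546 without CT12 or CT21. The waves differed by 0.28 ± 0.0348 (SE), adjusted p = 4e-05 in the permutation test.

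Sqstm1 (p62) binds ubiquitin and LC3 and is itself degraded with its cargo. Read by time, its livers gave 0.019, 0.029 and 0.021 at CT00, 0.25, 0.27 and 0.16 at CT03, 0.20, 0.17 and 0.18 at CT06, and 0.058, 0.10 and -0.090 at CT09. Later in the cycle it read -0.19, -0.27 and -0.082 at CT12, -0.077, -0.065 and -0.11 at CT15, -0.15, -0.12 and -0.099 at CT18, and -0.019, 0.046 and -0.11 at CT21. All livers of CT00, CT03 and CT06 read above 0 and all from CT12 to CT18 below it. Its wave was 1.27-fold (amplitude 0.17 ± 0.0236 (SE), peak at 3.71 ± 0.528 h; adjusted p = 3.95e-05). Nbr1, a receptor of like build, read 0.0099, 0.030 and 0.17 at CT09 and -0.18, -0.097 and -0.29 at CT21, and its wave was 1.17-fold with a peak at 9.05 ± 1.06 h (adjusted p = 0.0419). The call of Nbr1 was lost when any 1 of 14 of the 24 arrays was left out (adjusted p 0.0506 to 0.105; 2 of each of CT00, CT03, CT06, CT12 and CT18, replicate 3 of CT09 and all 3 of CT21), without CT03, CT06, CT09, CT12, CT18 or CT21 (0.0573 to 0.277), and after quantile normalization (0.0565). An ordinary, unmoderated F test also lost the call of Nbr1 (adjusted p = 0.0592). Sqstm1 and Nbr1 differed by a wave of 0.19 ± 0.0402 (SE), adjusted p = 0.0017 in the permutation test.

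Of the 8 genes of the lysosome and its regulator, 2 proteases followed a 24 h wave, and the membrane proteins and Tfeb did not pass. Of the 8, 7 were in the brighter class, where 34.1% of all genes were called, so 2 calls were no more than that share. The median fold was 1.08, beside 1.07 over all genes. Cathepsin L (Ctsl), a cysteine protease, was also called in the test of the 8 times. Its livers read 0.086, 0.0031 and 0.012 at CT00, 0.17, 0.086 and 0.080 at CT03, 0.25, 0.11 and 0.24 at CT06, and -0.030, 0.089 and 0.17 at CT09. The last 4 times gave 0.047, -0.13 and -0.090 at CT12, -0.0031, -0.16 and -0.0092 at CT15, -0.13, -0.13 and -0.090 at CT18, and -0.048, -0.035 and -0.19 at CT21. The livers of CT06 lay above all those of CT12 to CT21, and every liver of CT15, CT18 and CT21 read below 0. Its wave was 1.22-fold (amplitude 0.14 ± 0.0222 (SE), peak at 5.34 ± 0.601 h; adjusted p = 0.000207). In the test of the 8 times its adjusted p was 0.0112, and 0.0931 without CT06. Cathepsin A (Ctsa), a carboxypeptidase that also protects other lysosomal enzymes, read 0.081, 0.13 and 0.23 at CT06 and -0.079, -0.15 and -0.16 at CT18. Its wave was 1.14-fold and peaked at 6.05 ± 0.894 h (adjusted p = 0.012), and the call was lost without CT06 (0.151) or CT18 (0.152).

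The other proteases gave 1.03-fold for Ctsb, 1.08-fold for Ctsd and 1.06-fold for Ctsz, with adjusted p of 0.911, 0.58 and 0.463. Ctsl and Ctsb, both cysteine proteases, differed by a wave of 0.14 ± 0.0260 (SE), adjusted p = 0.00036 in the permutation test. This pair, like the others, was chosen with earlier results of these data known. Lamp1, a main glycoprotein of the lysosomal membrane, had means between -0.021 at CT03 and 0.025 at CT06 and a fold of 1.00 (adjusted p = 0.995). Lamp2 gave 1.08-fold (adjusted p = 0.665), and the pair did not differ past the threshold (0.054 ± 0.0397 (SE), adjusted p = 0.422 in the permutation test). Tfeb, the transcription factor of many lysosomal genes, gave 1.12-fold, with means from -0.094 at CT03 to 0.098 at CT15 (adjusted p = 0.215).

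Kupffer cells, the macrophages of the liver, are rich in lysosomes. Of 12 macrophage markers, none (0) was called by limma in either test, beside 13.8% of all genes called for the wave, or 10.6% in the lower class. Beside 4752 of all 19935 genes, and 3387 of 17180 in the lower class, 0 of the 12 had an unadjusted p under 0.05 for the wave. Their mean by time ran from -0.073 at CT09 to 0.034 at CT18, while single arrays ran from -0.57 at CT09 to 0.31 at CT15, so the arrays of CT09 (-0.57 to 0.26) spanned more than the means of the times. Their part in the lysosomal values was not tested. Levels of markers could not be read from the centred values, but all 5 hepatocyte markers tested were in the brighter class, against 2 of the 12 macrophage markers. By the wave, 1 of 5 was called for hepatocytes (Cyp2e1), 1 of 6 for stellate cells (Pdgfrb), 1 of 4 for bile duct (Sox9) and 1 of 3 for fat (Car3), small lists to be read beside 13.8% of all genes. None (0) was called for the wave among the markers of endothelium, neutrophils, lymphocytes, red cells, pancreas or muscle, 1 marker each of these other than red cells had an unadjusted p under 0.05, and Lyve1, of endothelium, passed only the test of the 8 times.

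**Figure D4:**
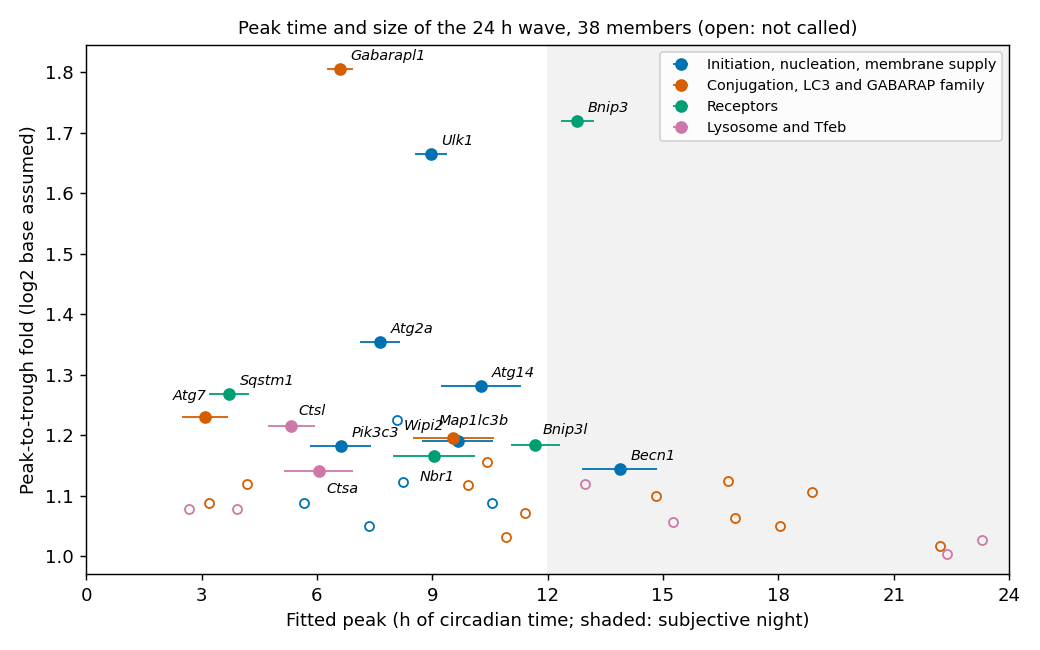
Fitted peak time in h (bars, ± SE for called genes) against the peak-to-trough fold of the 24 h wave for the 38 genes, coloured by role, with open points for genes not called and the subjective night shaded. Gabarapl1, Bnip3 and Ulk1 stand highest, at 1.81-, 1.72- and 1.66-fold, and the called peaks lie between 3.09 and 13.9 h.

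The 23 genes not called for the wave had folds of 1.00 to 1.22 with a median of 1.09, and adjusted p of 0.0545 to 0.995. A wave of that size may be missed with 3 livers per time, so these values do not show that the genes were constant. Of the 38 genes, 18 had an unadjusted p under 0.05 for the wave, as did 4752 of all 19935 genes. In the brighter class these were 11 of 20 members, against 1304 of 2609 genes, and in the lower class 7 of 17, against 3387 of 17180. Of the 15 calls, 8 (Ulk1, Atg2a, Atg7, Gabarapl1, Sqstm1, Bnip3, Bnip3l and Ctsl) held in every alternative fit that gave a value, at an adjusted p under 0.05, and 7 were lost in at least 1. Of the other 23 genes, 4 (Atg13, Atg16l1, Atg2b and Atg4d) were called for the wave in at least 1 alternative, and 19 in none.

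For 6 genes the value is the mean of 2 probe sets, and each was also tested apart. For Bnip3 the folds were 1.74 and 1.70, and for Bnip3l 1.19 and 1.17. For Map1lc3b both were 1.20, with adjusted p of 0.0661 and 0.0227. For Atg4a they were 1.10 and 1.11 and for Atg2b 1.15 and 1.09, none of these 4 called. The 2 probe sets of Gabarapl2, neither called, had fitted peaks at 6.78 ± 5.71 and 13.98 ± 4.22 h with folds of 1.05 and 1.06, and their mean gave 1.03. In 5 of the 6 (Bnip3, Bnip3l, Map1lc3b, Gabarapl2 and Atg4a) 1 probe set is numbered among probe sets of genes from another chromosome than the gene. Signal of the gene and of a near-identical copy cannot be told apart there, and these values are uncertain in that respect.

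Further genes of the pathway are given by list, each beside the 13.8% called and the median fold of 1.07 over all genes. Of 16 further initiation genes tested, 9 were called for the wave, with a median fold of 1.16, and 8 of the 9 peaked in the day. The 3 with the smallest p were Wdr45, a lipid reader of the WIPI family (1.46-fold, 8.81 h), Uvrag, a subunit of another lipid kinase complex (1.37-fold, 11.4 h), and Atg101, a partner of ATG13 (1.31-fold, 0.902 h). Of 11 further receptors tested, 4 were called, with a median fold of 1.15 over the list. They were Stbd1, a glycogen receptor (1.53-fold, 9.99 h), Retreg1, a receptor for endoplasmic reticulum (1.5-fold, 5.96 h), Calcoco1, also for endoplasmic reticulum (1.39-fold, 6.81 h), and Ncoa4, the ferritin receptor (1.20-fold, 16.5 h).

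Among 27 regulators, 12 were called, 7 of them with a day peak, and the median fold was 1.17. Ppara, a nuclear receptor of the fasting response, was 1.71-fold with its peak at 9.86 h. Mtor, the kinase that restrains ULK1 when nutrients are plentiful, was 1.43-fold and peaked at 7.76 h, beside 8.96 h for Ulk1. Trp53inp2 was 1.48-fold and peaked in the night, at 17.1 h. The forkhead factors Foxo1 and Foxo3 were called at 1.39-fold (12.2 h) and 1.30-fold (11.2 h). In the fusion machinery 2 of 14 were called, Vps11 (1.16-fold, 7.86 h) and Tecpr1 (1.15-fold, 4.74 h), and the autophagosomal SNARE Stx17 gave 1.18-fold at an adjusted p of 0.0509 in the limma fit.

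Beyond the 8 lysosomal genes described, 10 of 41 hydrolases and membrane proteins of the lysosome were called, 6 with a day peak, and their median fold was 1.08. The largest were Arsa, arylsulfatase A (1.81-fold, 7.12 h), and Npc1, the cholesterol exporter (1.73-fold, 8.53 h), and Gusb, beta-glucuronidase, was 1.27-fold with a night peak at 17.6 h. Of 15 subunits of the proton pump that acidifies the lysosome, 7 were called, 3 with a day and 4 with a night peak, with a median fold of 1.15. Of these subunits 13 were in the brighter class, where 34.1% of all genes were called. Atp6v1d (1.43-fold) and Atp6v0b (1.22-fold) peaked at 15.3 and 15.1 h, and Atp6v1c1 (1.26-fold) at 10.3 h.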

How the data were processed

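RNA from 24 livers was hybridized to 24 arrays (Affymetrix Mouse Gene ST 1.0). The deposited log2 values, per probe set and array, had been centred by the authors on the median of each probe set, since every row median was 0 within 5e-07. Background correction, normalization and log base were not given in the sources used here, so base 2 is an assumption. Arrays have no depth, and their number limits the precision.

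Symbols came from the platform annotation: 21780 of 28815 probe sets had 1 symbol, 1605 several and 5430 none listed, and the last 2 sets were left out. Probe sets were averaged per gene. Waves and the 8 times were tested with limma 3.58.1 in R 4.3.3 (moderated F, empirical Bayes over 19935 genes, Benjamini-Hochberg, threshold 0.05), after the code was checked on simulated data. Pairs were tested by permuting times over arrays (100000 draws). Brightness classes were read from the rounding steps of the values (4007 probe sets brighter, 24788 lower, 20 undecided), as levels are not held. Alternatives changed the arrays, times, normalization, weights, moderation, probe sets, filter, replicate block and minimum fold.

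Every one of the 38 genes is accounted for. Ulk1, Atg2a, Atg7, Gabarapl1, Sqstm1, Bnip3, Bnip3l and Ctsl get values at all times. The other genes called in either test get them at their highest and lowest time, read from the same values, and Map1lc3b also at CT09. Of each pathway list the 3 smallest p are named, while Ncoa4, Foxo1 and Foxo3 were added after their values were seen. Members, lists and pairs were chosen with earlier results of these data known. Promoters came from RefSeq (GRCm38.p6).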

Additional observations from a re-analysis of the deposited data

How the results depend on the processing

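No fitted peak of the 15 called genes or of the 8 differing pairs moved by more than 6 h under any alternative run. For the genes not called, and in the test of the 8 times, direction was not compared. The 24 h test called 15 of the 38 genes, and 10 to 17 under the alternatives other than a minimum fold. Leaving out single arrays gave 12 to 16, leaving out single times 10 to 15, and leaving out the 4 arrays farthest from their group (CT09 replicate 3, CT15 replicate 2, CT18 replicates 2 and 3) 11. With a minimum peak-to-trough fold of 1.5 the count was 3. The test of the 8 times called 11, 8 to 12 without single arrays and 7 to 10 without single times: 7 without CT06 and 7 without CT12. Over all genes this test called 1843 without CT06 and 1580 without CT12, against 2167 in the main fit. With brighter probe sets only, where 21 members had a value, it called 6, beside 881 of all 2744 genes with a value there. With array weights it called 16, beside 4900 of all 19935 genes. Of the 12 pairs 8 differed, and 7 to 8 without single times and 8 without any single array. The main tests did not take replicate numbers to pair the arrays. Of same-numbered pairs of arrays 45 of 84 correlated over 0.1, and of other-numbered pairs 45 of 168. Mean correlations were 0.0937 and -0.0465, so arrays of the same number were somewhat alike, which the main tests leave out. Values were first centred within each time, which ties the mean of other-numbered pairs to that of same-numbered pairs. The second mean therefore holds little separate information. With the number as a replicate block the wave test called 17 genes, adding Atg13 (adjusted p = 0.0345 in limma) and Atg4d (0.0169), the test of the 8 times 12, adding Atg13 (0.0465), and 8 pairs differed. Over all genes the block gave 2984 calls for the wave and 2664 in the test of the 8 times, against 2758 and 2167 without it. Background correction could not be varied on these values, and 3 arrays per time limit the precision.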
